A study of Mus musculus with 2 samples.

Results

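The C/EBP family and GFI1 are transcription factors of myeloid blood cells. They were examined here in LSK cells, bone marrow cells without lineage markers that carry Sca-1 and c-Kit and hold the stem cells and multipotent progenitors. The members were taken by gene name in the scanner files: Cebpa, Cebpb, Cebpd, Cebpe, Cebpg, Ddit3 and Gfi1. Of these 7 genes, 6 had a probe on the array, and they were read by 10 of the 41174 probes. No spot carried the name Cebpe, so C/EBP epsilon, the factor of late granulocyte maturation, was not analysed here. The study has 2 arrays: 1 of wild-type LSK cells and 1 of PAD4-deficient (PAD4-/-) LSK cells, both from C57BL/6 mice. PAD4 is the enzyme that turns arginine into citrulline in histones and other proteins, and its gene is Padi4. The sources used here do not state the age, sex or number of the mice, or which part of Padi4 was deleted.

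C/EBP proteins bind DNA as dimers through a basic region and a leucine zipper, and they pair with each other and with other zipper proteins. In the myeloid lineage C/EBP alpha drives progenitors towards granulocytes and monocytes, while C/EBP beta and C/EBP delta are induced by cytokines, infection and stress. C/EBP gamma lacks a strong activation domain of its own. Both it and CHOP, the product of Ddit3, pair with other zipper proteins. CHOP is induced by the integrated stress response and the unfolded protein response. GFI1 is a zinc finger repressor that favours neutrophils over monocytes and limits the cycling of stem cells. Cebpa and Cebpb each give longer and shorter proteins from the same transcript by the choice of start codon, which an array does not measure.

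RefSeq promoter windows, from 250 bases before to 50 after a start site in GRCm38.p6, were at hand for 5 of the 7 genes (Cebpa, Cebpb, Cebpg, Ddit3 and Gfi1), 6 windows in all. The short stretches below are from Cebpa, Cebpb and Ddit3, shown because the brightest probes of these 3 genes stood furthest from 0 in the comparison that follows. Capitals mark a C/EBP half-site (TTGCG) in Cebpa, a pair of CRE half-sites (TGACG, the core letters of CREB and ATF sites) in Cebpb, and a CCAAT box on the opposite strand in Ddit3.
Cebpa, chr7:35119088-35119132, plus strand: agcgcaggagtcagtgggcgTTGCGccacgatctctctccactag
Cebpb, chr2:167688842-167688914, plus strand: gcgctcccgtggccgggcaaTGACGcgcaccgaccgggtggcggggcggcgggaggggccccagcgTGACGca
Ddit3, chr10:127290696-127290740, plus strand: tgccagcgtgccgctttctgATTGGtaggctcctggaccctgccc
The capitals begin 185 bases before the start in Cebpa, 53 and 7 bases before it in Cebpb, and 77 bases before it in Ddit3. On either strand of all 32851 windows of 300 bases, TTGCG was found in 17.4%, TGACG in 20.8% and CCAAT in 37.4%, so these letters are common. The full C/EBP palindrome TTGCGCAA (0.183% of windows), the C/EBP-ATF composite TGATGCAA (0.895%) and the GFI1 core AAATCA (14.0%) were in none of the 6 member windows. CCAAT lies in 2 of the member windows, Ddit3 and Cebpg. A further TGACG lies on the minus strand of the Cebpb window, beginning 180 bases before the start. The letters of a TATA box, TATAAA, begin 30 bases before the start in the Cebpa window. In the Cebpb window they begin 21 bases after the start, and 13.6% of all windows hold them. TTGCG lies within TTGCGCAA. The short elements and the TATA box were searched after the longer ones gave no match, and a match is a description of letters only.

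The arrays were alike in overall signal. Of the probes used, 63.9% (wild-type) and 64.1% (PAD4-deficient) were well above background, and the signal at the 75th percentile was 814 and 786. Levels are given as the processed signal, in intensity units, and differences as log2 of the scaled signal, PAD4-deficient minus wild-type. The error beside a difference is the scanner error, which for bright single spots is set mainly by a fixed 10% term in the file headers; the median SD between spots of the same probe was 0.06 and 0.05 log2. With 1 array a group, no difference has a replicate check and none was tested. Padi4 read 12879 in wild-type and 2670 in PAD4-deficient cells (-2.22, error 0.20), and its other 2 probes gave -2.24 and -2.05. Kit (0.07) and Ly6a (-0.14), which encode the sorted markers c-Kit and Sca-1, were well above background on both arrays. The arrays also differed in sex-linked RNA: Xist read 3.93 in wild-type cells, where it was not well above background, and 16255 in PAD4-deficient cells. Ddx3y read 3455 in wild-type and 1297 in PAD4-deficient cells, well above background on both arrays. It differed by -1.36, and by -1.55 at the other probe. For every gene below, a difference by genotype and one that goes with these sex-linked transcripts cannot be told apart.

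None of the 6 measured members differed by 1.5-fold, a log2 difference of 0.58, in either direction. Among all 17021 measured genes 4.75% did (2.88% higher and 1.87% lower on the PAD4-deficient array), and 1.49% passed 2-fold. Each member probe is designed against an mRNA of its gene, per the file's annotation. All 10 were well above background on both arrays, none was saturated, and each was a single spot. By the brightest probe of each gene, 4 members lay above 0 and 2 below, from -0.43 (Ddit3) to 0.37 (Cebpa). The median was 0.12, beside 0.02 for all measured genes by the same rule. With the mean over each gene's probes, a setting that brings in the dim Cebpg probe, the median of the members was 0.02.

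**Figure D1:**
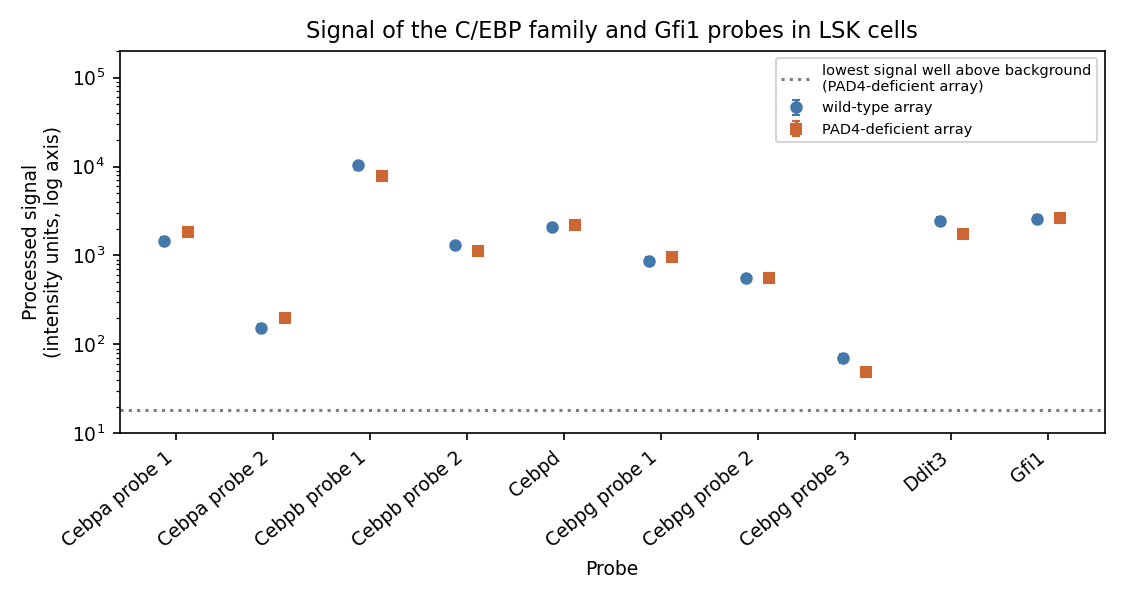
Processed signal of the 10 member probes (log axis, intensity units) on the wild-type array (circles) and the PAD4-deficient array (squares), with the scanner error of each spot as bars. Every probe lay above the dotted line, the lowest signal called well above background in PAD4-deficient cells (18.5), and the pairs of points stayed close.

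Cebpa, the factor that starts the granulocyte and monocyte programme, was higher on the PAD4-deficient array by both of its probes. The brighter probe (mm8 chr7:34830258-34830317) read 1474 in wild-type and 1838 in PAD4-deficient cells, or 0.37 with an error of 0.20 (1.29-fold). The dimmer probe (mm8 chr7:34829102-34829161), 1096 bases away, had 153 and 197, a difference of 0.42 with an error of 0.21 (1.33-fold). The probes thus gave differences that were 0.05 apart, less than the error of 0.29 between them, although their signals were far apart. Of all measured probes, 6.47% had a larger positive difference than the brighter probe and 4.93% than the dimmer.

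Cebpb, which serves emergency granulopoiesis and macrophages, was lower on the PAD4-deficient array. Its brighter probe (mm8 chr2:167381552-167381610) read 10277 in wild-type and 7744 in PAD4-deficient cells, a difference of -0.36 with an error of 0.20 (78.0% of the wild-type signal after scaling). The dimmer probe (mm8 chr2:167381014-167381073) lies 478 bases away and had 1305 and 1133. Its difference was -0.15, within its error of 0.20. The probes shared a direction, and the gap of 0.20 between them was within their joint error of 0.29.

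Cebpd, an acute-phase member of the family, read 2071 in wild-type and 2223 in PAD4-deficient cells by its probe at mm8 chr16:15801944-15802003. The difference was 0.15, within the error of 0.20. The Gfi1 probe (mm8 chr5:107957135-107957194) had 2581 and 2666, a difference of 0.10, also within the error of 0.20. For neither gene did the arrays differ by more than the scanner error.

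Cebpg, a partner of other C/EBP proteins, gave probes that went apart. The brightest probe (mm8 chr7:34756492-34756551) read 870 in wild-type and 969 in PAD4-deficient cells, a difference of 0.21 with an error of 0.20. The next (mm8 chr7:34759218-34759277) had 553 and 564 and differed by 0.08. The dimmest (mm8 chr7:34755658-34755717) had 69.8 and 48.8, a difference of -0.47 with an error of 0.24. It lay 0.67 below the brightest probe, with a joint error of 0.32. With normexp background correction and an offset of 50 this dim probe moved to -0.26. The direction of Cebpg therefore depends on the probe read.

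Ddit3, which encodes CHOP, had the lowest difference of the 6 genes by brightest probes; the dimmest Cebpg probe was lower. It read 2430 in wild-type and 1748 in PAD4-deficient cells, a difference of -0.43 with an error of 0.20 (74.5% of the wild-type signal after scaling). The probe is listed over 304 bases of mm8 (chr10:126698411-126698714), against 59 or 60 bases for the other members. Of all measured probes, 4.83% had a lower difference. No second probe for this gene was on the array.

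**Figure D2:**
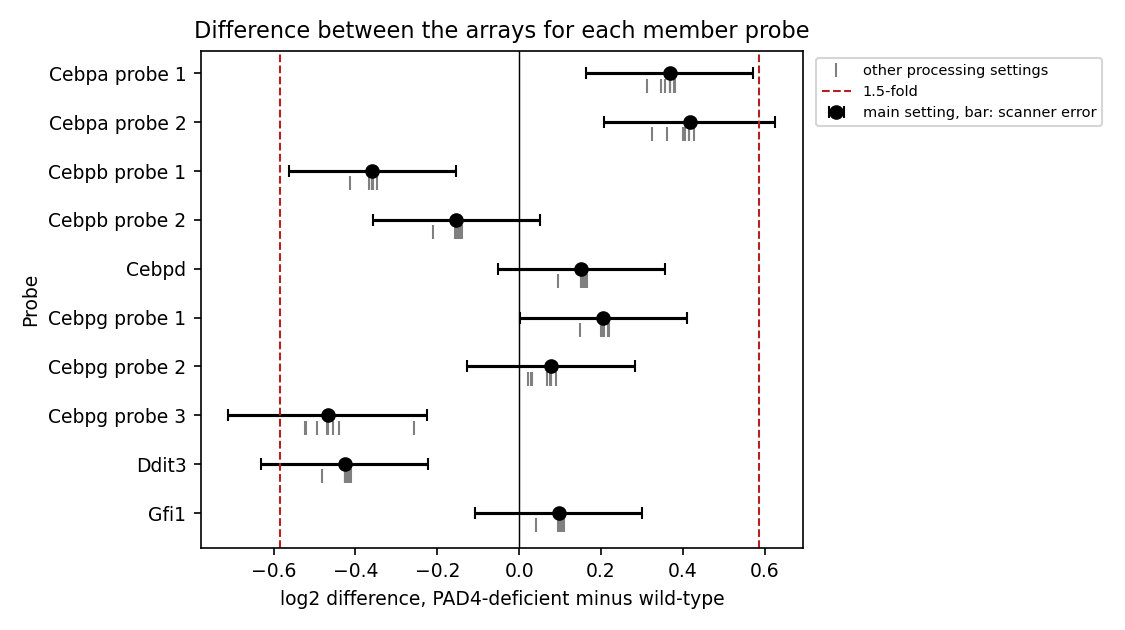
Difference of each member probe, PAD4-deficient minus wild-type on the log2 scale (points, with scanner error bars), with the values under 8 other processing settings as grey ticks and 1.5-fold as dashed lines. The Cebpa probes lie at 0.37 and 0.42, the Cebpb probes at -0.36 and -0.15 and Ddit3 at -0.43, and no point passes a dashed line.

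Bright probes spread less than dim ones, so the same difference is less common among them. With probes split into terciles of signal, the highest tercile holds 6 of the 10 member probes. There, 1.06% of 8508 probes passed 1.5-fold, against 3.88% in the middle and 8.76% in the lowest tercile. The central 95% of differences in that highest tercile ran from -0.42 to 0.31. The brighter Cebpa probe (0.37) lay above this range and Ddit3 (-0.43) just below it, while the Cebpb probes, Cebpd and Gfi1 lay inside. In the middle tercile the range was -0.57 to 0.49, and it held the dimmer Cebpa probe and both brighter Cebpg probes. The values of the brighter Cebpa probe and Ddit3 would lie inside that middle range. The highest tercile spans a wide range of signal, and its spread was not split further. The dim Cebpg probe lay inside the range of the lowest tercile, -0.64 to 0.89. These ranges describe the spread of probes on these 2 arrays and are no test.

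**Figure D3:**
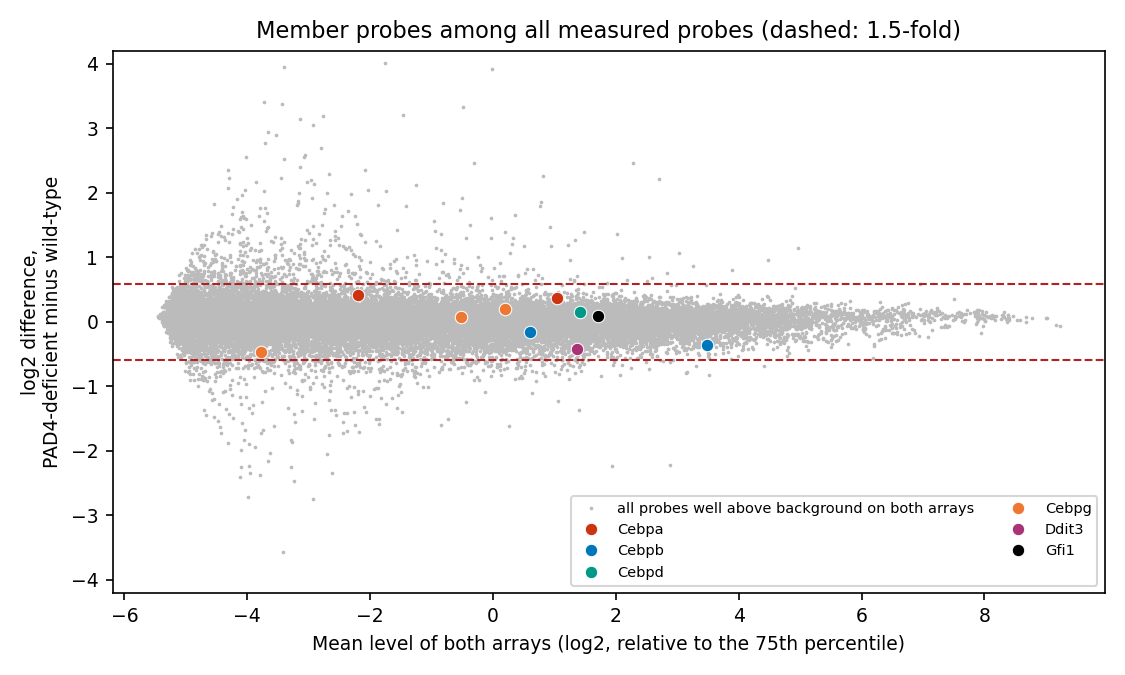
Difference (log2, PAD4-deficient minus wild-type) against the mean level of both arrays (log2, relative to the 75th percentile) for all probes well above background on both arrays (grey) and the member probes (coloured). All 10 member probes lie between the dashed lines of 1.5-fold, and the grey cloud narrows towards high levels.

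Cebpa and Cebpb differed in opposite directions, and so did Cebpa and Ddit3. By brightest probes the Cebpa difference was 0.73 above that of Cebpb (error 0.29) and 0.79 above that of Ddit3 (error 0.29), the widest of the 15 pairs of members. Expressed as a ratio, Cebpa relative to Cebpb was 1.65-fold higher on the PAD4-deficient array. With the dimmer Cebpb probe, at -0.15, the gap to Cebpa is smaller. Cebpb and Ddit3 lay 0.07 apart and Cebpd and Gfi1 0.06 apart, within the error of 0.29. These gaps do not depend on a scaling that shifts a whole array.

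Genes that C/EBP proteins are known to switch on in myeloid cells were mostly above 0. All 17 were measured; 4 passed 1.5-fold upwards and none downwards, 14 lay above 0, and the median was 0.34. Over all measured genes 2.88% passed upwards and 1.87% downwards, and the median was 0.02. This list and those below were chosen with earlier results of these data known, so their counts are descriptions only. Elane, neutrophil elastase, differed by 1.92 (error 0.20), Ms4a3, a surface protein of granulocyte and monocyte progenitors, by 1.79 (error 0.20), and Ctsg, cathepsin G, by 0.96 (error 0.20). Mpo, myeloperoxidase, went from 81966 to 118188 (0.58), just short of 1.5-fold, and Lyz2, lysozyme, from 52689 to 52969 (0.06, with -0.04 at the other probe). The receptor genes of this list, looked up after their values were seen, were nearer 0 or below. Csf3r, the G-CSF receptor and a classic C/EBP alpha target, differed by 0.21, Csf2ra by -0.01, Csf1r by 0.10 (-0.35 at the other probe) and Il6ra by -0.44 (-0.31 at the other probe).

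Markers of neutrophil precursors lay above 0, as Cebpa did. Of the 6, 4 passed 1.5-fold upwards, against 2.88% of all measured genes; the median was 0.88, and their summed signal was 97409 in wild-type and 148252 in PAD4-deficient cells. These 6 genes are all in the list of C/EBP-regulated genes, so the lists are not separate evidence. The same 4 genes, Elane, Ms4a3, Ctsg and Fcnb, passed 1.5-fold in both lists. Ltf, Lcn2, Camp and Ngp of the late neutrophil list are C/EBP-regulated list genes too, as are Csf1r and Lyz2 of the monocyte and macrophage list. Of 10 measured late neutrophil markers 9 lay above 0 and none passed 1.5-fold (median 0.37). Of 5 eosinophil markers 3 passed 1.5-fold (median 1.05); Prg2, the major basic protein of eosinophil granules, went from 647 to 1545. The monocyte and macrophage list had 3 of 10 at least 1.5-fold higher (median 0.41), mast cell and basophil 4 of 5 (0.75), erythroid 5 of 7 (1.63) and B cell 5 of 8 (0.81), with none 1.5-fold lower. The same 2.88% and 1.87% of all measured genes are the background for these counts. The summed signals did not all follow the medians. The erythroid sum was 27802 in wild-type and 27810 in PAD4-deficient cells; its brightest marker, Car2, read 22721 and 21958. The monocyte and macrophage sum was 62760 and 64510, the late neutrophil sum 25787 and 32884, and the eosinophil sum 1031 and 2140. Ly6g, of the late neutrophil list, had no probe, and Ms4a2, of the mast cell and basophil list, was not well above background in wild-type cells. Each of these lists had markers well above background in wild-type cells too. Some markers were dim and shrank with normexp and an offset of 50. Epx, of the eosinophil list, went from 1.24 to 0.67, and Ermap, of the erythroid list, from 2.52 to 1.42. The brighter Prg2 moved less, from 1.31 to 1.21. The LSK gate list had a median of -0.13, and Flt3 was its only member past 1.5-fold (-0.67). In such bulk RNA, more cells of a type and more RNA per cell cannot be told apart, and the part of these markers in the Cebpa difference was not tested.

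Genes listed around Ddit3, from the integrated stress response and related stress pathways, did not share a direction. Of 23 measured, none was 1.5-fold higher and 1 was 1.5-fold lower; 12 lay above 0 and 11 below, with a median of 0.03 (-0.03 with median scaling). That count of 1 is near the 4.75% of all measured genes past 1.5-fold. Chac1, a glutathione-degrading enzyme and a CHOP and ATF4 target, was the 1 past 1.5-fold, from 136 to 84.9 (-0.63, error 0.22; -0.40 with normexp). Of the 3 brightest members, Phgdh, of serine synthesis, differed by -0.11, Hspa5, the chaperone BiP, by 0.28 and Ddit4 by 0.08. After their values were seen, further genes of this list were looked up. Atf4, which induces Ddit3, differed by -0.29, Ppp1r15a, the phosphatase subunit that ends the response, by -0.39, and Trib3 by -0.41 (-0.76 at the other probe). Asns, asparagine synthetase and an ATF4 target, differed by 0.37, and Atf3 by -0.03. The highest of the list was Ero1a at 0.38 (0.12 at the other probe). Eif2ak3 (0.33, and 0.15 at the other probe), Mthfd2 (0.32) and Psat1 (0.30) were above 0 too. The list also holds Cebpz (0.10, and from -0.07 to 0.09 at its other probes), which shares the C/EBP name but is not a zipper protein.

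Leucine zipper partners and relatives of the family, listed with the TRIB adaptors, were centred on 0. Of these adaptors, TRIB1 and TRIB2 direct C/EBP alpha to degradation. By brightest probes, 2 of 22 measured genes passed 1.5-fold upwards and none downwards (2.88% and 1.87% of all measured genes), with a median of -0.01. Fosl2, looked up after its value was seen, differed by -0.58, just short of 1.5-fold. Its second probe, at -0.61, and that of Trib3, at -0.76, were past it. Batf3, a factor of dendritic cells, went from 121 to 477 (2.02, error 0.21). Trib2 differed by 0.77 (error 0.21), with 0.61 at its second probe, while Trib1, looked up after its value was seen, differed by -0.54. The 3 brightest genes stayed within the error of 0.20: Junb at -0.13, Jund at 0.19 and Nfe2 at 0.04.

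The list around Gfi1 held differences in both directions beside a near-zero Gfi1. Of 20 measured genes, by brightest probes, 3 passed 1.5-fold upwards and 3 downwards (2.88% and 1.87% of all measured genes). The median was 0.05 (-0.01 with median scaling). Ets1, looked up after its value was seen, differed by 0.16 at its brightest probe, but its other probes ran from -1.87 to -0.01. Gfi1b, the paralog that acts in erythroid cells and platelets, differed by 0.65 (error 0.20), against 0.10 for Gfi1 itself. Irf8, of monocytes and dendritic cells, differed by 0.75 (0.34 at the other probe), and Id2, an inhibitor of E proteins, by 0.72 (0.84 at the other probe). Egr2, a monocyte factor that GFI1 represses, differed by -0.83, its cofactor Nab2 by -0.70 and Cdkn1a, the p21 cell cycle inhibitor, by -0.61. Egr1, the brightest of the list, differed by -0.34, Ehmt2, a histone methyltransferase, by -0.15 and Rcor1, a corepressor that binds GFI1 with Kdm1a, by 0.18.

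Other myeloid transcription factors showed a like spread. Of 20 measured, 3 passed 1.5-fold upwards and 1 downwards (2.88% and 1.87% of all measured genes), and the median was -0.02; Irf8, Id2, Egr1 and Egr2 are shared with the list before. Gata1, the erythroid and megakaryocyte factor, went from 244 to 458 (0.96). Cbfb (0.08) and Myb (0.26), both bright, lay below 1.5-fold by their brightest probes, but the other Myb probes ran from 0.15 to 0.71, past 1.5-fold at the top. Spi1, which encodes PU.1, the partner of C/EBP alpha in early myeloid cells, was looked up after its value was seen. It read 398 in wild-type and 257 in PAD4-deficient cells, a difference of -0.58 just short of 1.5-fold, opposite in direction to Cebpa.

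**Figure D4:**
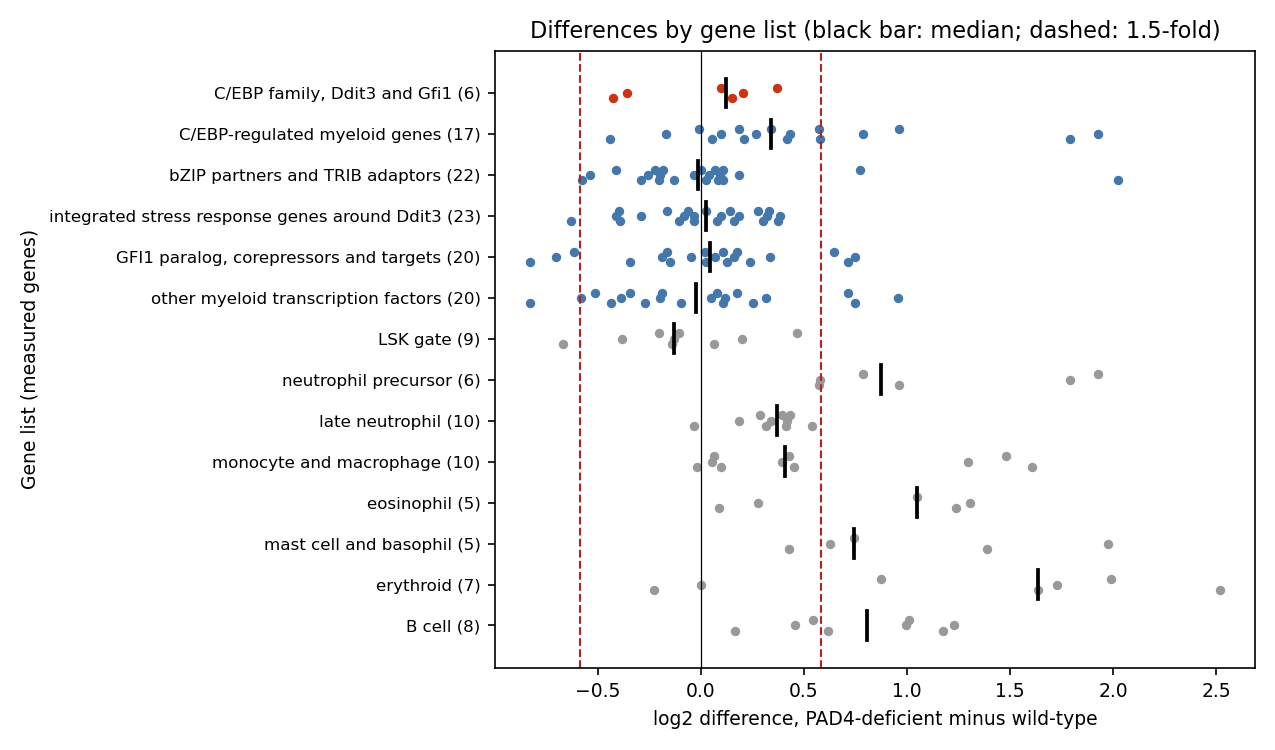
Difference of each measured gene (points, log2, PAD4-deficient minus wild-type, brightest measured probe) in the member list (red), the lists around it (blue) and the cell type marker lists (grey), with each list's median as a black bar and 1.5-fold as dashed lines. The members have a median of 0.12, the C/EBP-regulated genes 0.34 and the neutrophil precursor markers 0.88.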

How the data were processed

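RNA of LSK cells was labelled with Cy3 and read on 1-colour Agilent arrays, 1 per group. Per the file headers, the design was 014868, the software Feature Extraction 9.5.3.1 and the probe coordinates mm8; the submitters' processing notes name version 9.5. The deposited intensity used is the processed signal, from which the authors' software had subtracted background and spatial trends. The deposited table of values, in log2, equalled the log2 processed signal minus 9.67 (wild-type) or 9.62 (PAD4-deficient), within 0.001, for all 41170 probes used; its column medians were -3.59 and -3.53.

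Control and outlier-flagged spots were left out, which removed 4 probes. Log2 processed signals were averaged over the spots of a probe and scaled by subtracting the array's 75th percentile. A probe was measured when well above background on both arrays, and a gene took its brightest measured probe. Genes outside the member list were named through the RefSeq table of GRCm38.p6 (24371 probes by accession, 6301 by symbol, 2426 by synonym, 8072 under the file's name). Python 3.11.15, numpy 2.4.6, pandas 2.3.3, statsmodels 0.14.6 and limma 3.58.1 in R 4.3.3 (normexp) were used; the steps were tested on simulated data. The number of arrays limits the precision, and no test was possible.

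The members, the 5 lists around them and the 8 marker lists were chosen with earlier results of these data known. Named were all member probes; from each of the 5 lists up to 3 genes per direction past 1.5-fold and the 3 brightest; and Padi4, Kit and Ly6a. Other genes were named after their values were seen. With 2 arrays each gene has 1 difference, so no gene of like pattern was named. Protein sequences were not used here. Beside genes with no measured probe, 1 marker list member is not reported here.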

Additional observations from a re-analysis of the deposited data

How the results depend on the processing

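No paired analysis was possible because there was 1 array a group, and leaving out a replicate was not possible. Every member probe kept its direction, and moved by less than its scanner error, under all 8 alternatives: normexp background correction with an offset of 50 and with none, median scaling, quantile normalization, loess on signal, scaling by the 75th percentile over detected probes, the deposited value table, and outlier flags kept. Median scaling, the detected-probe percentile, the deposited table and the kept flags each shift all member probes by 1 constant. They rest on the same processed signal and are no separate check of a probe. The brighter Cebpa probe ranged from 0.31 to 0.38, the brighter Cebpb probe from -0.41 to -0.35, Ddit3 from -0.48 to -0.41, Gfi1 from 0.04 to 0.11 and the dim Cebpg probe from -0.52 to -0.26. The count of members past 1.5-fold was 0 under each of the 8 alternatives and with the mean over probes. Both looser signal filters bring in no further member probe, and a count of 0 at 1.5-fold must be 0 at 2-fold. Those settings are therefore no check of this count. The median of the members ranged from 0.02 with the mean over probes to 0.14 with quantile normalization; without the mean over probes the lowest was 0.07, with median scaling. Over all genes, the count past 1.5-fold was 808, but 334 with normexp and its offset, which shrinks dim differences by construction, and 597 with no offset. With that offset the median of the C/EBP-regulated genes fell from 0.34 to 0.23. The medians of the stress response and GFI1 lists, 0.03 and 0.05, turned to -0.03 and -0.01 under 1 alternative each, median scaling, which moves all genes by -0.06.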
